A study of Homo sapiens with 6 samples.

Results

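The CCN family, a set of secreted matricellular proteins, was followed through HK2 cells that expressed additional SIRT4. Its members were taken by their exact symbols, CCN1 to CCN6, and all 6 were among the 38100 genes listed in the deposited tables. HK2 is an established human proximal tubular epithelial cell line. The cells carried either an adenovirus without an insert (AdCtrl, n = 3) or an adenovirus for SIRT4, a mitochondrial sirtuin (AdSirt4, n = 3), and were labelled as wild type. Every sample of both groups had been stimulated with TGF-β1, so the response of the family to TGF-β1 itself cannot be read from these samples. The dose and the time of TGF-β1 for these libraries are not given in the sources used here. The study counts technical replicates as n for its work in cultured cells, and the labels name no separate cultures, so the SDs and p-values below may describe technical spread alone.

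CCN proteins are built from the same modules in a row, an insulin-like growth factor binding module, a von Willebrand factor type C module, a thrombospondin type 1 module and a C-terminal cystine knot, the last of which CCN5 lacks. They are not structural parts of the matrix. They sit in it, bind integrins and heparan sulfate proteoglycans, and alter how cells respond to growth factors such as TGF-β, BMPs and VEGF. CCN1 (CYR61) and CCN2 (CTGF, connective tissue growth factor) are immediate early genes and well known targets of the co-activators YAP and TAZ with TEAD factors. CCN2 is in addition a target of SMAD signaling downstream of TGF-β and is used as a marker of kidney fibrosis.

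In the GENCODE v29 annotation of GRCh38, the principal transcript of each of the 6 members has 5 exons. CCN1 lies on chromosome 1 from 85580761 to 85583962 on the plus strand. CCN2 lies on chromosome 6 from 131948176 to 131951373 on the minus strand. CCN6 lies on the plus strand of the same chromosome from 112054072 to 112070969, and CCN5 on the plus strand of chromosome 20 from 44714844 to 44728509. CCN1 and CCN2 are the compact genes of the family, with introns that sum to 912 and 859 bases, whereas the introns of CCN3 sum to 5526, those of CCN5 to 11368, those of CCN6 to 14198 and those of CCN4 to 35462 bases. Their principal transcripts are also close in length, at 2290 bases for CCN1 and 2339 for CCN2. The coding length of CCN5 is 750 bases, against 1047 to 1143 bases in the other members.

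The RefSeq promoter table for GRCh38.p14, which covers 250 bases before to 50 bases after a start site, matched 2 of the 6 members, CCN2 and CCN6. The CCN2 promoter is shown because it holds several copies of the core letters to which TEAD factors bind, and CCN2 had the largest fold change of the 4 tested members. The core searched was GGAATG on both strands. It occurred 3 times in the CCN2 promoter, from 169 to 164, from 104 to 99 and from 95 to 90 bases upstream of the start site. At least 1 copy was present in 14.0% of the 35116 promoters of the table, and 3 or more copies in 0.128%. The SMAD box CAGAC, which 45.3% of promoters hold on either strand, occurred once in CCN2, just upstream of the first core. The TATA box letters TATAAA, present in 11.5% of promoters, occurred once, from 32 to 27 bases upstream. The SP1 box GGGCGG occurred 3 times, each as its reverse complement and with the last pair overlapping, against 15.8% of promoters with at least 3. The AP-1 letters TGACTCA were absent from this window, and 4.95% of promoters hold them. In the stretches below, read 5′ to 3′ on the strand of the gene, capitals mark the TEAD core, the SMAD box and the TATA box.
CCN2, chr6:131951528-131951557, minus strand, SMAD box and first TEAD core: agctttttCAGACggaGGAATGctgagtgt
CCN2, chr6:131951455-131951484, minus strand, the other TEAD cores: ggtggggaGGAATGcgaGGAATGtccctgt
CCN2, chr6:131951387-131951416, minus strand, TATA box: ccgcccggagcgTATAAAagcctcgggccg
CCN6, chr6:112053964-112053993, plus strand, TEAD core: agggcaaggaagGGAATGacgtgggacccc

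The CCN6 stretch is shown as a counterpart from a member that was hardly detected in these cells. GGAATG occurred 2 times in the CCN6 promoter, which 1.37% of promoters reach, from 128 to 123 bases upstream and, as its reverse complement, across the start site. The letters of the SMAD, TATA and SP1 boxes were not found in it. Such matches describe letters in a window and not bound sites.

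The libraries held 41537353 to 85684748 counts. SIRT4 had 31, 47 and 57 counts in the AdCtrl replicates and 1996, 7995 and 6827 in the AdSirt4 replicates, a log2 fold change of 6.36 (SE 0.36, adjusted p = 0.00801 from edgeR). AdSirt4 replicate 1 stood apart from the others. It had the lowest SIRT4 count of its group, and its deviation from the mean of all samples ran against gene length (Spearman's rho of -0.56 across genes, against 0.0971 to 0.43 in the other libraries), which means that counts of short genes were relatively high in it. Its FPKM values (fragments scaled to gene length and to depth) summed to 447768, against 359104 to 373951 elsewhere. The fold changes of the members, their ratios and the gene lists are therefore also given without it. The labelled cell type was visible in PAX8 (208 to 261 CPM), GGT1, KRT8, KRT18, KRT19 and EPCAM, but CDH1, the epithelial cadherin, lay at 0.504 to 0.869 CPM, and LRP2, CUBN, AQP1, SLC34A1, ANPEP and HNF4A, which define the mature proximal tubule, were below 1 CPM. Among markers of other cells, all 5 endothelial genes were below 1 CPM. Of 4 leukocyte markers PTPRC, CD3E and LST1 were below 1 CPM, while CD68, a lysosomal protein, was at 31.6 to 46.5 CPM. Of 6 fibroblast markers COL3A1 had no counts, PDGFRA and DCN were below 1 CPM and PDGFRB at 0.667 to 1.62 CPM, while COL1A1 was at 17.7 to 26.6 CPM and LUM at 14.5 to 22.0 CPM. The summed level was 41.7 to 45.1 CPM in AdCtrl and 39.9 to 40.8 CPM in AdSirt4 for the fibroblast markers, and 32.1 to 37.1 and 36.4 to 46.8 CPM for the leukocyte markers. The summed 5 epithelial markers lay at 1850 CPM in AdSirt4 replicate 1 and at 1220 to 1360 CPM in the other 5 libraries, and their part in the values below was not tested.

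On the FPKM scale, which corrects for length and therefore allows members to be compared with each other, the family was dominated by CCN1. Its mean over the 6 samples was 653 FPKM, rank 74 of the 38100 listed genes, and its rank was between 55 and 97 in each library. These are bulk RNA samples, in which more RNA per cell and more cells that express a gene cannot be told apart. CCN2 followed at 172 FPKM, with ranks between 233 and 379. CCN3 had a mean of 7.17 FPKM and CCN5 of 1.5 FPKM. This order held in every library, and the gaps between these 4 levels were larger than the spread between samples. CCN1 made up 79.0 to 79.5% of the summed FPKM of the family in AdCtrl and 76.9 to 78.0% in AdSirt4, while CCN2 made up 19.4 to 19.7% and 21.2 to 22.0%. The shares of both members did not overlap between the groups. Together these members made up nearly all of the sum, so their shares mirror each other and the ratio of CCN2 to CCN1 given below. The summed family signal was 661, 656 and 711 FPKM in AdCtrl and 1160.0, 938 and 878 FPKM in AdSirt4, in the order of the replicates.

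CCN4 and CCN6 were at the edge of detection or below it. CCN4, on the plus strand of chromosome 8 from 133191039 to 133231690 and first described as a WNT1-induced gene, had 2, 0 and 0 counts in AdCtrl and 0, 2 and 0 counts in AdSirt4. CCN6, whose loss causes a progressive joint disease of childhood, had 2, 0 and 7 counts in AdCtrl and 0, 5 and 3 in AdSirt4. Up to 3 counts remain possible behind a listed 0, or 0.0348 to 0.0770 CPM depending on the library, as far as counting error goes. The levels of these 2 members overlapped with each other and between the groups, no fold change is given for them, and neither passed the filter on low counts. The 4 other members passed it, out of 17720 genes tested.

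CCN1, a ligand of several integrins that is induced within minutes by serum and growth factors, was the most abundant member. AdCtrl replicates 1, 2 and 3 held 73219, 58745 and 72455 counts of CCN1, and the AdSirt4 replicates 98814, 162498 and 140191. Normalised to library size, these were 1354, 1383 and 1410.3 CPM in AdCtrl and 2536, 1885 and 1725 CPM in AdSirt4. The groups did not overlap, the AdSirt4 samples being higher, and AdSirt4 replicate 1 was well above the other two. The group levels were 1382 ± 28.1 CPM and 2048 ± 429 CPM (SD, n = 3), which gave a log2 fold change of 0.57 (SE 0.17), or 1.48-fold (unadjusted p = 0.0128, adjusted p = 0.534 from edgeR). CCN1 did not pass the threshold of 0.05.

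CCN2 showed the largest difference of the family. There were 18775, 14829 and 18126 counts in AdCtrl and 27661, 45436 and 41179 counts in AdSirt4, or 347, 349 and 353 CPM against 710, 527 and 507 CPM. The AdCtrl replicates were within a few CPM of each other, the AdSirt4 replicates were all higher, and AdSirt4 replicate 1 was again the highest. The means were 349.7 ± 2.84 CPM and 581 ± 112 CPM (SD, n = 3). CCN2 had a log2 fold change of 0.73 (SE 0.15), or 1.66-fold, which was rank 68 by p of the 17720 tested genes (unadjusted p = 0.00196, adjusted p = 0.494 from edgeR). With DESeq2 the fold change was the same and the adjusted p was 0.00229. A two-sided exact permutation test gave p = 0.1 for CCN1 and for CCN2, the smallest p that 3 samples against 3 allow.

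CCN3 (NOV), on the plus strand of chromosome 8 from 119416306 to 119424353, counteracts CCN2 in several models of fibrosis. It differed little between the groups. Its counts were 1034, 838 and 926 in AdCtrl and 809, 1855 and 1821 in AdSirt4, or 19.1, 19.7 and 18.0 CPM against 20.8, 21.5 and 22.4 CPM. The groups did not overlap in CPM, although their means of 18.96 ± 0.862 and 21.6 ± 0.824 CPM (SD, n = 3) were close together. The log2 fold change was 0.19 (SE 0.09, unadjusted p = 0.0814, adjusted p = 0.678 from edgeR).

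CCN5 (WISP2), the member without the cystine knot, was low. It had 134, 90 and 100 counts in AdCtrl and 156, 265 and 195 in AdSirt4, or 2.48, 2.12 and 1.95 CPM against 4.00, 3.07 and 2.40 CPM. AdSirt4 replicate 3 lay below AdCtrl replicate 1, so the groups overlapped. The means were 2.18 ± 0.271 and 3.16 ± 0.805 CPM (SD, n = 3), a difference of 0.52 on the log2 scale (SE 0.23, unadjusted p = 0.0538, adjusted p = 0.633 from edgeR). The fit with a replicate block moved these to 0.0298 (unadjusted p) and 0.680 (adjusted p).

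**Figure D1:**
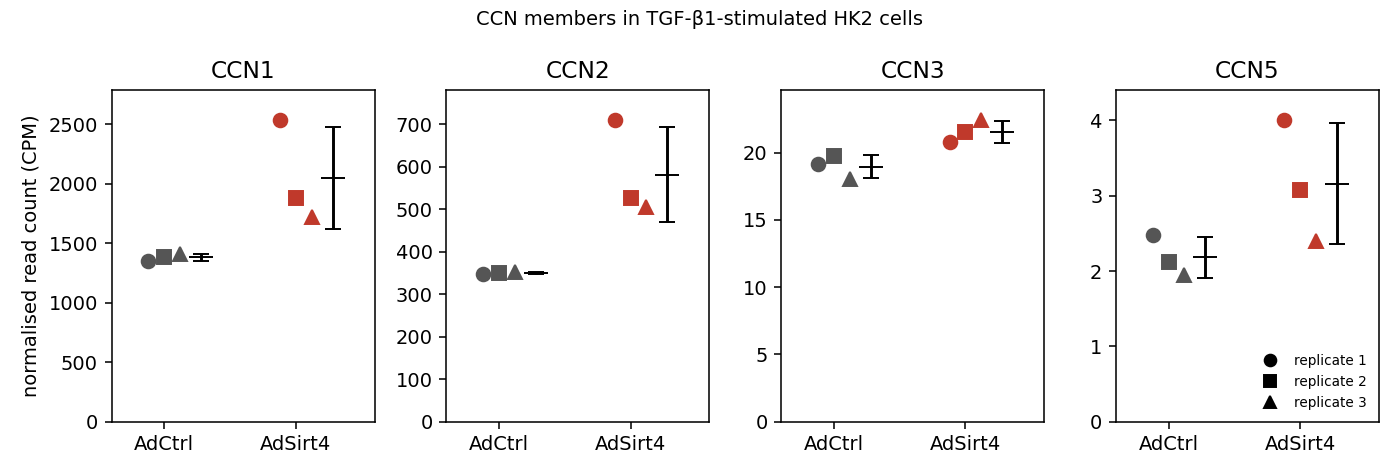
Normalised read count (CPM, y axis from 0) of CCN1, CCN2, CCN3 and CCN5 in each library, with AdCtrl in grey and AdSirt4 in red, the replicate number as the symbol, and the mean and SD (n = 3) beside the points. CCN1, CCN2 and CCN3 do not overlap between the groups, and AdSirt4 replicate 1 is the highest sample for CCN1, CCN2 and CCN5.

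Of the 4 tested members, edgeR called 0 at an adjusted p under 0.05, where it called 0.0113% of all tested genes. At an unadjusted p under 0.05, CCN1 and CCN2 passed and both were higher, against 4.43% of all tested genes that passed as higher. DESeq2 called 1 member, CCN2, against 0.700% of genes called as higher. The groups did not overlap in CPM, with AdSirt4 higher, for 3 of the 4 members and for 9.66% of all tested genes. The fold changes of all 4 members were above 0, which was also true of 53.4% of tested genes.

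AdSirt4 replicate 1 was the sample farthest from its group for CCN1 and CCN2. Without it, edgeR gave CCN1 a log2 fold change of 0.38 (adjusted p = 0.00497) and CCN2 one of 0.56 (adjusted p = 0.000282), so both passed, where 3.37% of tested genes were called as higher. Over the remaining replicates 2 and 3 of AdSirt4, CCN1 was at a mean of 1805 CPM, or 1.31 times the AdCtrl mean, and CCN2 at 517 CPM, or 1.48 times. Limma voom, which gives less weight to libraries that fit their group poorly, called CCN1 (log2 fold change 0.43, adjusted p = 0.00632) and CCN2 (0.59, adjusted p = 0.000736), with 4.74% of tested genes called as higher. CCN3 had a log2 fold change of 0.21 (adjusted p = 0.107) and CCN5 one of 0.32 (adjusted p = 0.312) in edgeR without AdSirt4 replicate 1. Neither was called under any of the 19 alternatives. The values for CCN1, CCN2 and CCN5 all depended on that library, falling from 0.57, 0.73 and 0.52 with all 6 samples, while that for CCN3 did not fall. Across the 19 alternative fits, log2 fold changes ranged from 0.38 to 0.68 for CCN1, from 0.56 to 0.82 for CCN2, from 0.08 to 0.21 for CCN3 and from 0.32 to 0.69 for CCN5. The adjusted p of CCN1 ranged from 0.00497 to 0.971 and that of CCN2 from 0.000282 to 0.971.

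**Figure D2:**
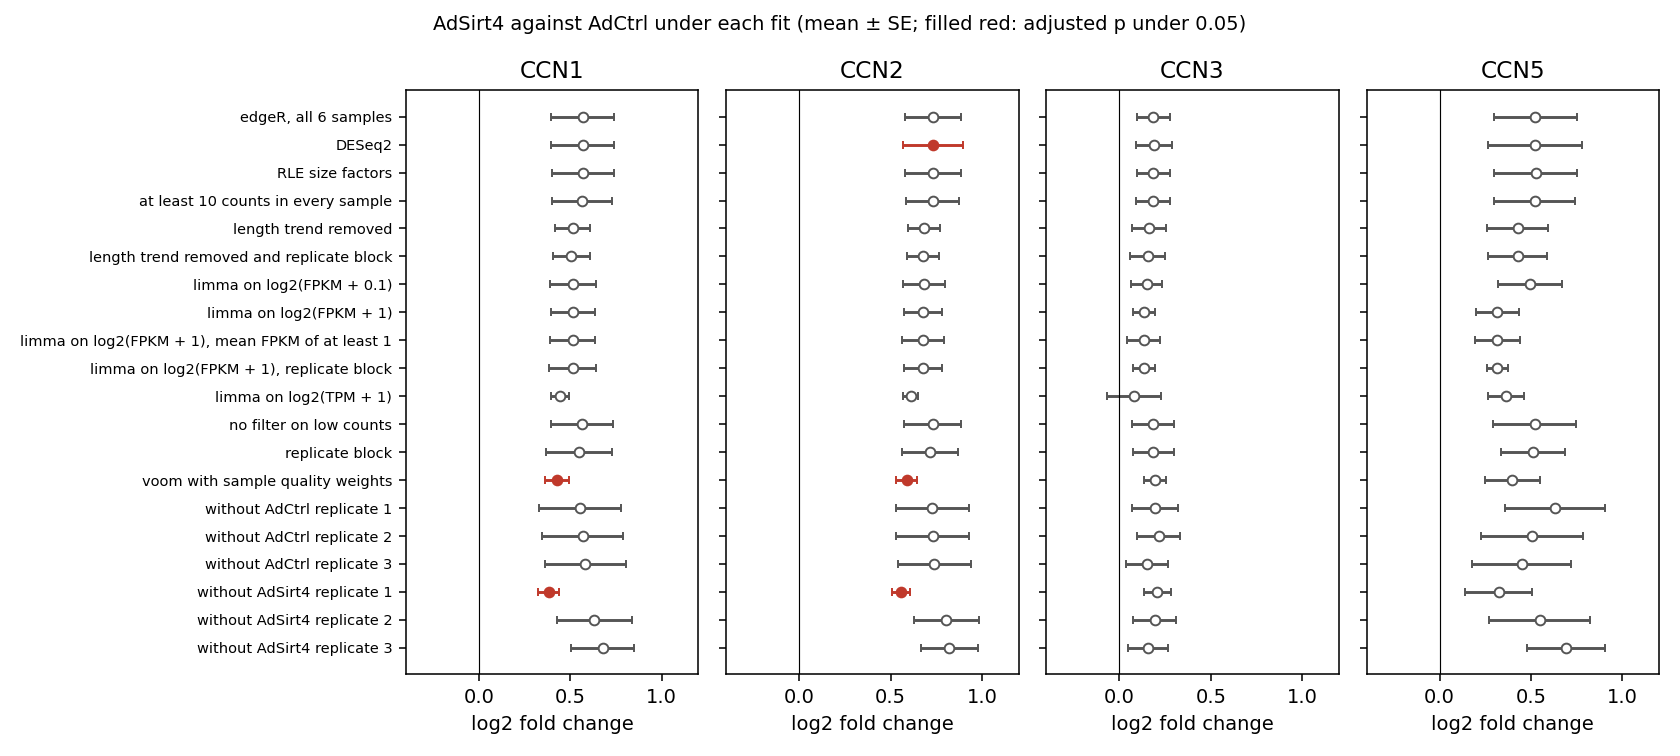
Log2 fold change of AdSirt4 against AdCtrl (x axis, ± SE) for the 4 tested members under edgeR with all 6 samples and under 19 alternative fits, with fits that reached an adjusted p under 0.05 filled in red. All estimates lie above 0, CCN1 is called in 2 of the alternatives and CCN2 in 3.

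The excess of AdSirt4 replicate 1 over its group depended on the scale. When the values of each library were divided by their sum to give TPM, CCN1 was at 1396, 1398 and 1525 TPM in AdCtrl and at 2019.7, 1968 and 1881 TPM in AdSirt4. On this scale AdSirt4 replicate 1 was close to replicates 2 and 3, and the AdSirt4 mean of 1956 ± 70.1 TPM stood 1.36 times above the AdCtrl mean of 1440.0 ± 73.9 TPM (SD, n = 3). CCN2 was at 349, 344 and 372 TPM in AdCtrl and at 551, 536 and 538 TPM in AdSirt4, with an SD of 7.94 TPM in AdSirt4 where it had been 112 on the CPM scale. The groups did not overlap, and the ratio of the means was 1.53. Limma on log2(TPM + 1) gave CCN1 a difference of 0.44 (adjusted p = 0.243) and CCN2 one of 0.61 (adjusted p = 0.187).

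CCN3 and CCN5 changed places between these scales. In TPM, CCN3 was at 18.2, 18.4 and 18.0 in AdCtrl and at 15.3, 20.8 and 22.6 in AdSirt4, so that AdSirt4 replicate 1 fell below all AdCtrl samples and the groups overlapped. CCN5 was at 3.68, 3.14 and 2.99 TPM in AdCtrl and at 4.87, 4.72 and 3.90 TPM in AdSirt4, so the groups no longer overlapped. On this scale 3 of the 4 members, CCN1, CCN2 and CCN5, did not overlap with AdSirt4 higher, against 5.31% of all tested genes. Removing the trend on gene length from the CPM of each library gave values in between, with 2258, 1936 and 1793 CPM for CCN1 and 637, 540.5 and 525 CPM for CCN2 in AdSirt4. The log2 fold changes were then 0.51 (adjusted p = 0.118) for CCN1 and 0.68 (adjusted p = 0.0771) for CCN2 in edgeR.

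**Figure D3:**
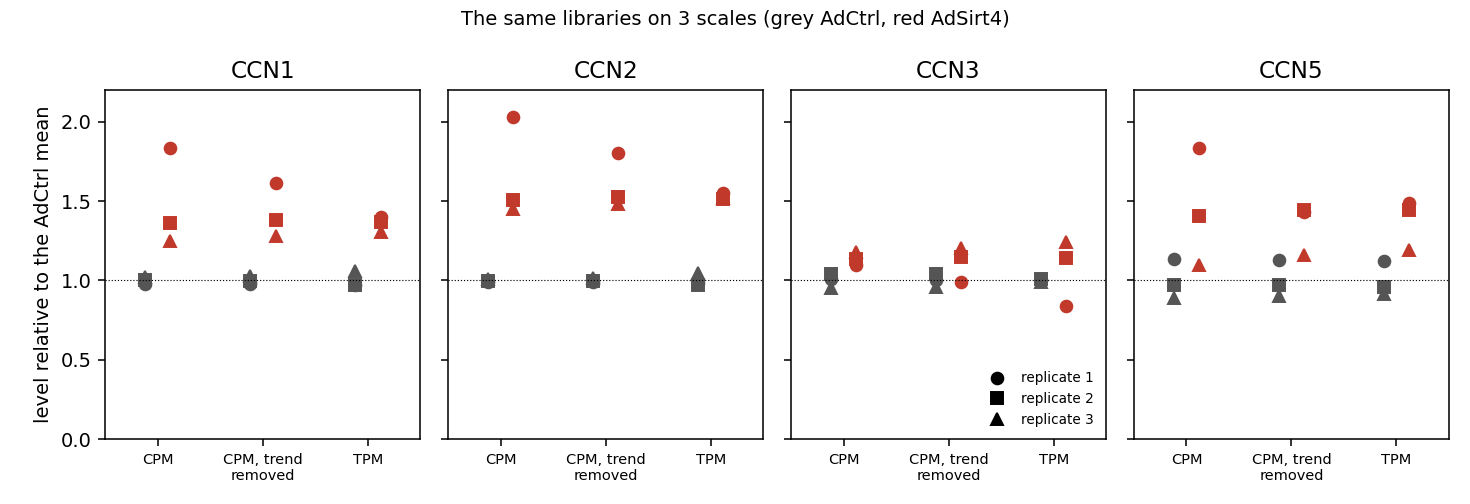
Level of each tested member relative to its AdCtrl mean (y axis, no unit, from 0) in CPM, in CPM after removal of the trend on gene length, and in TPM, with AdCtrl in grey, AdSirt4 in red and the replicate number as the symbol. For CCN1 and CCN2, AdSirt4 replicate 1 moves from far above the other AdSirt4 replicates in CPM to close to them in TPM, and for CCN3 it moves below AdCtrl.

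Whether the members moved by the same factor was examined with ratios of counts within each library, which do not depend on how libraries are scaled. The ratio of CCN2 to CCN1 was 0.256, 0.252 and 0.250 in AdCtrl and 0.280, 0.280 and 0.294 in AdSirt4. All 3 AdSirt4 libraries had a higher ratio than all AdCtrl libraries, and AdSirt4 replicate 1 did not stand apart in it. The log2 ratio differed by 0.17, or 1.12-fold, which was larger than the SDs of 0.02 in AdCtrl and 0.04 in AdSirt4. The two-sided exact permutation test gave p = 0.1, the smallest it can give, and p = 0.25 after Benjamini-Hochberg adjustment over the 5 ratios examined. Between samples of the same replicate number, the log2 ratio differed by 0.13, 0.15 and 0.23, and it differed by 0.18 without AdSirt4 replicate 1.

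The ratio of CCN3 to CCN2 was lower in every AdSirt4 library. It was 0.0551, 0.0565 and 0.0511 in AdCtrl and 0.0293, 0.0408 and 0.0442 in AdSirt4, where replicate 1 was the lowest. The log2 ratio fell by 0.53, to 0.693 of its AdCtrl level (exact permutation test, p = 0.1, adjusted p = 0.25). Without AdSirt4 replicate 1 it fell by 0.35, still without overlap. Ratios of CCN3 to CCN1 overlapped between the groups (log2 difference -0.36, exact permutation p = 0.2, adjusted p = 0.333), as did those of CCN5 to CCN1 (-0.04, exact permutation p = 1.0, adjusted p = 1.0) and of CCN5 to CCN2 (-0.21, exact permutation p = 0.3, adjusted p = 0.375). Without AdSirt4 replicate 1 these 3 differences were -0.17, -0.06 and -0.24.

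**Figure D4:**
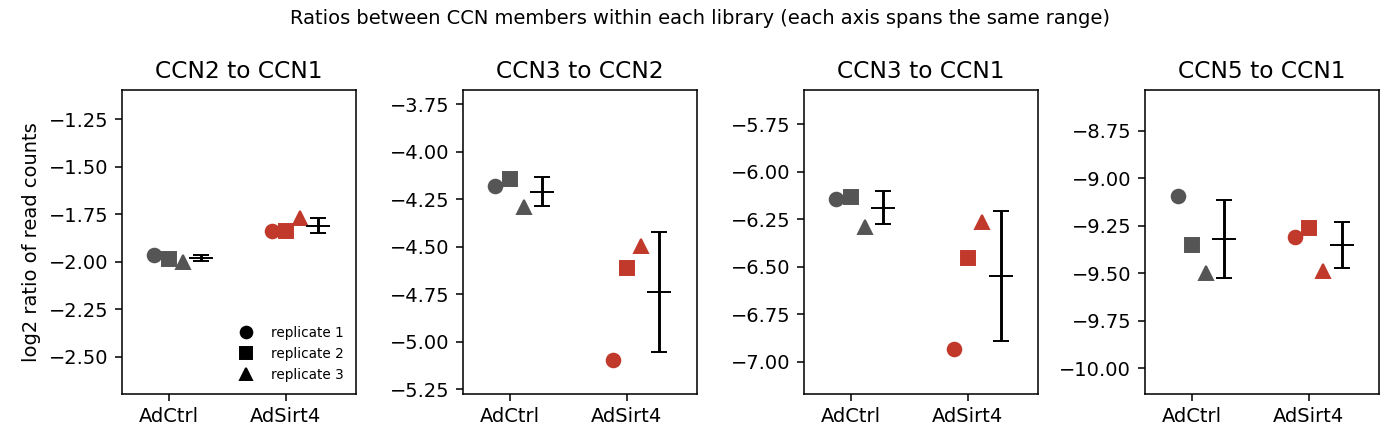
Log2 ratio of read counts between pairs of members within each library (y axis, the same span in each panel), with AdCtrl in grey, AdSirt4 in red, the replicate number as the symbol, and the mean and SD (n = 3) beside the points. The CCN2 to CCN1 ratio is higher and the CCN3 to CCN2 ratio lower in all 3 AdSirt4 libraries than in any AdCtrl library, while the other plotted pairs overlap.

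Across the 6 libraries, log2 CPM of CCN1 and CCN2 ran closely together (Pearson's r = 0.987), and both ran with CCN5 (r = 0.917 and 0.892). CCN3 was less alike, with r between 0.516 and 0.699 to the other 3. These values describe 6 points that share the group difference and the deviation of AdSirt4 replicate 1. The genes whose pattern was most like that of CCN1, among 10357 genes of at least 10 CPM, were LTV1, a ribosome assembly factor (r = 0.9988), MMGT1, TAGLN2, an actin-binding protein, RRAD, a small GTPase, and the heat shock factor HSF4. For CCN2 they were the stress kinase MAP2K4 (r = 0.9963), the splicing factor SRSF6, the RNA helicase DDX18, PTTG1IP and NIBAN2. For CCN3 they were MIDN (r = 0.9868), TRIM41, ZNF506, SOAT1, which esterifies cholesterol, and FOSL1, an AP-1 subunit. For CCN5 they were TMEM97 (r = 0.9962), AKIRIN1, NOL10, CENPT and WDR1. None of these 20 genes was shared between members.

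CCN proteins signal through integrins, syndecan 4 and other receptors, and 17 of the 18 listed receptors and co-receptors passed the filter. By edgeR 2 had an unadjusted p under 0.05 as higher and 1 as lower, and 0 passed after adjustment. For comparison, 7.93% of all tested genes had an unadjusted p under 0.05 in either direction. DESeq2 called 1 receptor, SDC4, as higher, against 0.700% of all tested genes. SDC4, the heparan sulfate proteoglycan syndecan 4, was at 383, 433 and 426 CPM in AdCtrl and at 568, 551 and 580.3 CPM in AdSirt4. Its groups did not overlap, AdSirt4 replicate 1 was in the middle of its group, and the log2 fold change was 0.45 (SE 0.11, adjusted p = 0.494). ITGB6, whose αvβ6 integrin activates latent TGF-β, had a log2 fold change of 0.26 (102, 103 and 97.0 CPM against 117, 122 and 123 CPM), and ITGA6, the laminin receptor subunit, one of -0.35 (34.8, 30.7 and 32.5 CPM against 22.4, 26.6 and 27.9 CPM). Neither pair of groups overlapped. Of the 17 receptors 3 were without overlap as higher and 5 as lower, against 1711 and 1732 of all 17720 tested genes. Without AdSirt4 replicate 1, SDC4 and ITGB6 passed the adjusted threshold as higher and ITGA6 as lower (adjusted p = 0.00361, 0.0133 and 0.0468 in edgeR). In that fit 6.71% of all tested genes passed in either direction. The median log2 fold change of the 17 genes was -0.09, against 0.02 over all tested genes. Without AdSirt4 replicate 1 it was 0.07, against -0.003 over all tested genes. ITGAV, at 1060.0 and 1120.0 CPM, and ITGB1, at 1280.0 and 1260.0 CPM in AdCtrl and AdSirt4, were the most abundant of the listed integrin subunits. Others were low, with ITGB2 at 9.77 and 11.4 CPM, ITGAM at 0.186 and 0.352 CPM and ITGA2B at 0.27 and 0.31 CPM. These subunits were chosen for mention after their values had been seen.

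Of 13 listed proteins that bind CCN proteins, 10 passed the filter. By edgeR 0 of them had an unadjusted p under 0.05, and DESeq2 called 0 after adjustment. The 3 with the smallest p were SLIT3, BMP2 and HSPG2, with log2 fold changes of -0.61, -0.15 and -0.39. These were -0.33, -0.20 and -0.07 without AdSirt4 replicate 1, in which HSPG2 was at 273 CPM, against 668 and 697 CPM in replicates 2 and 3. TGFB1 itself was at 69.3 ± 2.18 and 66.5 ± 7.15 CPM (SD, n = 3). The matrix protein FN1 was at 8693, 7907 and 8823 CPM in AdCtrl and at 4912, 9576 and 11950 CPM in AdSirt4, where replicate 1 was far below the rest. Without that replicate FN1 was the gene of this list that passed in edgeR (log2 fold change 0.34, adjusted p = 0.0479). In that fit 6.71% of all tested genes passed in either direction. The median of the list was -0.10, and -0.11 without AdSirt4 replicate 1. FN1 and TGFB1 were named after their values had been seen.

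Among 13 proteases that can cleave CCN proteins, 6 passed the filter. MMP1, the interstitial collagenase, was at 5.11, 3.98 and 4.73 CPM in AdCtrl and at 7.03, 6.48 and 9.68 CPM in AdSirt4. The groups did not overlap, and the log2 fold change was 0.75 (SE 0.19, unadjusted p = 0.00583, adjusted p = 0.494 from edgeR). MMP7, matrilysin, was at 584, 594 and 611 CPM in AdCtrl and at 920.2, 638 and 703 CPM in AdSirt4 (0.34, adjusted p = 0.668), without overlap. MMP14, the membrane collagenase, differed by -0.08 and was without overlap as lower. Of the 6 proteases 2 were without overlap as higher and 1 as lower, against 1711 and 1732 of all 17720 tested genes. Neither edgeR nor DESeq2 called a protease after adjustment (0 of 6), and MMP1 alone had an unadjusted p under 0.05 in edgeR. Without AdSirt4 replicate 1, MMP1 passed in edgeR (adjusted p = 0.0238), where 6.71% of all tested genes passed in either direction. The median of the list was 0.11, and 0.04 without AdSirt4 replicate 1, when 7 genes were tested.

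The regulators through which CCN1 and CCN2 are transcribed were all detected, and 19 of 19 were tested. By edgeR 2 had an unadjusted p under 0.05, both higher, and 0 passed after adjustment by edgeR or DESeq2. JUN, an AP-1 subunit, was at 288, 276 and 268 CPM in AdCtrl and at 384, 353 and 313 CPM in AdSirt4 (log2 fold change 0.34, SE 0.11, adjusted p = 0.576). SRF, the serum response factor, was at 73.8, 79.9 and 75.2 CPM and at 84.6, 95.0 and 88.3 CPM (0.23, SE 0.09, adjusted p = 0.612). WWTR1, which encodes TAZ, was at 411, 403 and 391 CPM and at 513, 463 and 439.6 CPM (0.23, SE 0.11, adjusted p = 0.670). None of these 3 overlapped between the groups, which with AdSirt4 higher held for 9.66% of all tested genes. Of the 19 regulators 4 were without overlap as higher and 1 as lower, against 1711 and 1732 of all 17720 tested genes. The lower one was SP1, at 189, 189 and 210 CPM in AdCtrl and at 81.5, 177 and 187 CPM in AdSirt4. Its log2 fold change was -0.40 (adjusted p = 0.744 from edgeR), and -0.11 without AdSirt4 replicate 1. In the fit with a replicate block, 1 regulator, JUN, had an unadjusted p under 0.05. YAP1 was at 181 ± 5.68 and 177 ± 24.5 CPM (SD, n = 3), and the log2 fold changes of TEAD1 to TEAD4 lay between -0.14 and -0.04. In edgeR without AdSirt4 replicate 1, those of TEAD1 to TEAD4 were 0.12, -0.09, -0.004 and -0.08, and that of YAP1 was 0.07. Without AdSirt4 replicate 1 the median of the list changed from -0.03 to 0.10, and JUN, SRF and NF2, an upstream inhibitor of YAP, passed as higher (adjusted p = 0.0318, 0.0226 and 0.0272), or 3 of 19 against 3.37% of all tested genes. YAP1, NF2 and the TEAD genes were named after their values had been seen.

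Other targets of YAP and TEAD were split in direction with all 6 samples, with 9 of the 19 tested above 0 and 10 below, from a list of 20. Without AdSirt4 replicate 1, 14 were above 0 and 5 below, while of all 18287 tested genes 9031 were above 0 and 9256 below. The median log2 fold change with all samples was -0.01. NUAK2, a kinase that acts on actomyosin, was at 92.4, 94.4 and 93.5 CPM in AdCtrl and at 138, 154 and 143 CPM in AdSirt4. The log2 fold change was 0.64 (SE 0.09, unadjusted p = 0.000179, adjusted p = 0.239 from edgeR), and AdSirt4 replicate 1 was the lowest of its group. ANKRD1, a nuclear ankyrin repeat protein induced by stretch, was at 13.4, 12.5 and 13.0 CPM and at 21.9, 17.3 and 19.8 CPM (0.60, SE 0.12, adjusted p = 0.461). Both were without overlap between groups. Of the 19 genes 3 were so as higher and 1 as lower, against 1711 and 1732 of all 17720 tested genes. NUAK2 and ANKRD1 were the 2 members of the list with an unadjusted p under 0.05 in edgeR, which called 0 after adjustment. DESeq2 called both, where 0.700% of all tested genes were called as higher. IGFBP3 was at 91.5, 91.5 and 99.6 CPM and at 138, 122 and 94.7 CPM, with overlap (0.33, adjusted p = 0.650). Without AdSirt4 replicate 1 the median was 0.08 and 4 of 19 genes passed as higher, against 3.37% of all tested genes, NUAK2 (adjusted p = 0.000126), ANKRD1 (0.00769), CRIM1 (0.0134) and AMOTL2 (0.0253).

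Genes that share the insulin-like growth factor binding module with the CCN family were examined last, and 9 of 12 were tested. By edgeR 0 had an unadjusted p under 0.05, and DESeq2 called 0. IGFBP3, KAZALD1 and CRIM1 had the smallest p, with log2 fold changes of 0.33, -0.31 and 0.16. The median of 0.12 became -0.11 without AdSirt4 replicate 1, when KAZALD1 passed as lower (-0.50, adjusted p = 0.00557) and CRIM1 as higher (0.29, adjusted p = 0.0134). Of the 9 genes 1 thus passed in each direction, against 617 as higher and 610 as lower of all 18287 tested genes.

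**Figure D5:**
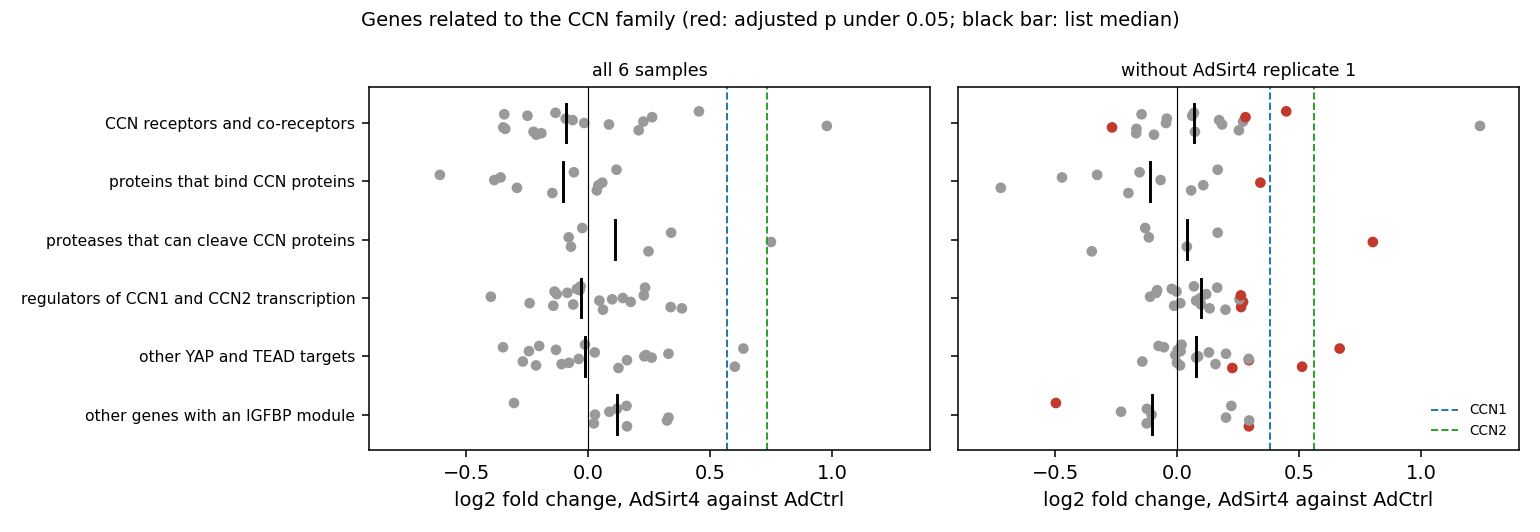
Log2 fold change of AdSirt4 against AdCtrl (x axis) for each tested gene of the 6 lists, from edgeR with all 6 samples and without AdSirt4 replicate 1, with genes of an adjusted p under 0.05 in red, list medians as black bars, and CCN1 and CCN2 as dashed lines. No listed gene is red with all 6 samples, and the medians of the receptors, the regulators, the YAP and TEAD targets and the genes with an IGFBP module change sign without that replicate.

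Overlapping transcripts limit how some members can be read. The strand setting of the counting is not given in the sources used here. In GENCODE v29, the antisense gene KCNK15-AS1 spans all 1600 exon bases of CCN5, and it had 114 counts over the 6 samples in the deposited table, against 940 for CCN5. AL133346.1 spans 314 exon bases of CCN2 and AC021733.1 spans 1518 of CCN3. Neither has a row in the table under these names, and whether they were counted under other symbols is not known. TUBE1, a tubulin gene on the opposite strand, spans 193 exon bases of CCN6 and had 3321 counts, against 17 for CCN6. These spans are of whole antisense genes with their introns, so overlap of exons with exons was not examined. Reads that fall on exons of both a member and its antisense partner may not be told apart without strand. The counts are also per gene, so spliced transcripts and transcripts that keep an intron were counted together.

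The 3′ untranslated regions of the members differ in the pentamer ATTTA, a letter pattern of AU-rich elements found in many short-lived mRNAs. It occurs 5 times in the 920 bases of CCN1, 3 times in the 1088 bases of CCN2, 6 times in the 1221 bases of CCN3 and 0 times in the 504 bases of CCN5. The hardly detected members hold the most copies, with 11 in the 3980 bases of CCN4 and 8 in the 1349 bases of CCN6. Of 19920 protein-coding genes, 61.8% hold at least 1 copy, 35.7% at least 3, 24.1% at least 5 and 14.2% at least 8.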

How the data were processed

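Per the labels, poly(A) RNA of each sample was fragmented and converted to cDNA with random hexamers, and the submitters' processing notes name fastp 0.21.0, HISAT2 2.1.0, StringTie 2.1.5, DESeq2 1.30.1 and the build hg38. The authors deposited read counts per gene, as whole numbers without normalization, which may have been derived from coverage since StringTie is among the tools. They deposited a second table with an unnamed unit that was read as FPKM from its values, and TPM were obtained by rescaling each sample to the same sum. The cell line tag carries another number in each sample, while all titles give HK2.

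The members and the gene lists were chosen with earlier results of these data known. Groups came from the labels. Counts were fitted across all genes with edgeR 4.0.16 (TMM, filterByExpr with a minimum count of 10, robust quasi-likelihood test) in R 4.3.3, with Benjamini-Hochberg adjustment over all tested genes at 0.05. CPM use TMM library sizes. For log2 CPM of single members and for ratios within libraries, an exact permutation test over samples was used, two-sided (scipy 1.17.1).

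Deviations from the group means correlated across genes at 0.178, 0.159 and 0.176 between samples of the same replicate number and at -0.188 to 0.0298 between others, so a replicate block was fitted as an alternative. The other alternatives were DESeq2 1.42.0, RLE size factors, other count filters, limma 3.58.1 on log2(FPKM + 1) and log2(FPKM + 0.1), a length trend removed by lowess, voom with sample quality weights, and each sample left out. Limma on log2(TPM + 1), and the lists and the ratios of CCN3 and CCN5 without AdSirt4 replicate 1, were added after seeing the data.

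Named genes were all members, SIRT4, the 5 genes of at least 10 CPM with the most similar pattern for each member of at least 1 CPM, and the 3 genes of smallest p in each list. Motifs were searched in RefSeq promoters of GRCh38.p14, and gene models came from GENCODE v29.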

Additional observations from a re-analysis of the deposited data

How the results depend on the processing

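The log2 fold changes of CCN1, CCN2, CCN3 and CCN5 were above 0 under all 19 alternatives. With all 6 samples edgeR called 0 of the 4 members. DESeq2 called 1 (CCN2, 0.73, adjusted p = 0.00229), voom with sample quality weights 2 (CCN1, 0.43, and CCN2, 0.59) and edgeR without AdSirt4 replicate 1 also 2 (CCN1, 0.38, adjusted p = 0.00497, and CCN2, 0.56, adjusted p = 0.000282). The other 16 alternatives called 0. Leaving out each sample in turn gave 0.38 to 0.68 for CCN1, 0.56 to 0.82 for CCN2, and 0 to 2 called members. With the replicate number as a block, log2 fold changes were 0.55 for CCN1, 0.72 for CCN2, 0.19 for CCN3 and 0.51 for CCN5, the log2 ratio of CCN2 to CCN1 differed by 0.17, and no adjusted call of a member changed, while the unadjusted p of CCN5 fell below 0.05 (0.0298). The ratio differed by 0.15 to 0.18 when a sample was left out. The exact permutation test cannot give a p under 0.1 with all 6 samples, so it could not pass 0.05 with or without a sample left out. Over all genes, edgeR called 2 genes as higher and 0 as lower with all samples, 617 and 610 without AdSirt4 replicate 1, 840 and 744 with voom, 124 and 82 with DESeq2, and 1 and 0 with the block. The cause of the different calls was not tested. The 4 and 17 counts of CCN4 and CCN6 over all libraries allow no comparison.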
